A study of Drosophila melanogaster with 3 samples.

Results

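The genes described here are those named for proteins of the large subunit of the cytosolic ribosome in Drosophila melanogaster. They were all protein-coding genes of the BDGP6 annotation whose symbol begins with RpL or RpLP followed by a digit, which gave 54 genes of 13945 on 6 chromosome arms. This rule also takes in RpLP0-like, RpL7-like and RpL24-like, which resemble yeast factors of ribosome assembly. They are counted among the large-subunit genes throughout. The study measured where a fusion of Nautilus (nau) with eGFP lies on chromatin, by immunoprecipitation with an antibody to GFP followed by sequencing (ChIP-seq). The material was whole embryos of a nau-GFP line aged 4 to 24 h, with both sexes pooled, in 3 biological replicates. All 3 replicates carry the C-terminal GFP fusion as a transgene and form a single group. No embryos without the fusion, and none with another GFP fusion, were analysed here. Signal that depends on Nau and signal that other anti-GFP experiments would share therefore cannot be told apart. Because whole embryos were used, a region bound in few cells and one bound weakly in many cannot be told apart either.

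Nautilus is the only Drosophila member of the MyoD family of basic helix-loop-helix factors, which direct muscle formation and bind E-boxes, the short DNA word CANNTG. In the fly embryo it is known from subsets of muscle precursor cells. Ribosomal protein genes are transcribed in nearly every cell, at very high rates, because each new ribosome needs 1 set of their products. Their Drosophila promoters are known for the TCT initiator, a pyrimidine-rich start site word that stands in place of the common initiator, and for binding by the promoter factors DREF and M1BP.

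The stretches below show what the starts of these genes look like at the strongest summits, since the summits lay on them. The summit is the single base the authors give as the point of highest enrichment within a region. All sequences were read from the RefSeq copy of the Release 6 genome (dm6), 5′ to 3′ on the strand of the gene. Capitals mark the TCT word (CTTT with 2 pyrimidines on each side), or, in RpL34a, the DREF element (DRE, TATCGATA). RpL7 is shown at chr2L:10201085-10201114 on the plus strand and RpLP0 at chr3L:22076077-22076106 on the plus strand, each with 15 bases either side of the transcription start site (TSS) nearest to the summit. RpL34a is shown at chr3R:26059248-26059357 on the minus strand, RpL23A at chr3L:1668635-1668744 on the minus strand, RpL13A at chr3R:5624384-5624493 on the plus strand and RpL32 at chr3R:30046142-30046251 on the minus strand. These last 4 begin 90 bases before the TSS and hold 20 transcribed bases.
RpL7: gtatagcacgtttccggtctTTCTTTCCct
RpLP0: tgccgccgccaacttcaCTCTTTCCgttct
RpL34a: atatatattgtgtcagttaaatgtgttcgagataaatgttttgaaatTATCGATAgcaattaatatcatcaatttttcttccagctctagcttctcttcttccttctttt
RpL23A: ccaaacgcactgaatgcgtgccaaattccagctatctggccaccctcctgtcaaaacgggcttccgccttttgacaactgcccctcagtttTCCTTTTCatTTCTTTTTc
RpL13A: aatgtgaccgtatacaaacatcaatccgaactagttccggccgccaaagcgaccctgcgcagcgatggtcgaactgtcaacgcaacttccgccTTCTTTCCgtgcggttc
RpL32: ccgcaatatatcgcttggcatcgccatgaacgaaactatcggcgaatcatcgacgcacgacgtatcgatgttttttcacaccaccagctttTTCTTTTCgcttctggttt

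RpL34a was the strongest of these genes without a TCT word at any annotated start. The summits lay upstream of the starts shown, by 47 bp at RpL7, 18 bp at RpLP0, 36 bp at RpL34a, 43 bp at RpL23A, 41 bp at RpL13A and 62 bp at RpL32. At RpL7 and RpLP0 the start shown lies inside the annotated gene, downstream of its 5′ end, and so does the summit.

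The second set of stretches shows words of promoter factors beside the summits, at 30 bases each and on the strand of the gene. Capitals mark the core of the M1BP word (GGTCACACT, or its reverse complement AGTGTGACC) or the DRE. The M1BP word of RpL7 lies at chr2L:10200979-10201008 on the plus strand, that of RpLP0 at chr3L:22076055-22076084 on the plus strand and that of RpLP1 at chr2L:419924-419953 on the plus strand. The DRE of RpL28 lies at chr3L:3223034-3223063 on the minus strand, that of RpL27 at chr3R:25685073-25685102 on the minus strand and that of RpL37-1 at chrX:15139406-15139435 on the minus strand.
RpL7, M1BP word: ctccgcggccAGTGTGACCgtttggccgat
RpLP0, M1BP word: ccatcgaagcGGTCACACTgggtgccgccg
RpLP1, M1BP word: tcatcggcgcGGTCACACTgcatatcaact
RpL28, DRE: tacgaaatgctTATCGATAgttgccctgcc
RpL27, DRE: ttgccactaagTATCGATAaaaagacgacg
RpL37-1, DRE: cggacaaaaacTATCGATActcgcgcaacg

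The deposited data were lists of enriched regions, each with a summit and a signal value, the authors' own measure of enrichment on a scale that is not named. Each replicate had a list of 30000 regions and the pooled replicates another of 30000. From the pooled list came 3767 regions that passed the authors' threshold on reproducibility (irreproducible discovery rate, IDR). These 3767 were the strongest of the pooled list, with signal values between 166 and 2783. The lists do not give read depth, so regions are compared by rank within a list, where 1 is the strongest. Confidence intervals below are 95% Wilson intervals and cover counting error over genes only, and genes are not replicates.

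An IDR summit lay within the gene or up to 2 kb upstream in 35 of the 54 large-subunit genes (64.8%, interval 51.5 to 76.2%). The same held for 24 of 39 genes of the small subunit (61.5%), whose products bind the messenger RNA and its decoding site, and for 10 of 47 genes of the mitochondrial large subunit (21.3%). Among all protein-coding genes the share was 17.9%, or 2497 genes. Large-subunit genes are short, with a median length of 1315 bp against 2166 bp for all genes. Of the 10218 genes no longer than the longest of them (4606 bp), 10.8% held an IDR summit.

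Narrower rules around the TSS kept most of the large-subunit genes and fewer of all genes. Within 500 bp of a TSS it was again 35 of the 54 genes, against 23 small-subunit genes, 7 mitochondrial large-subunit genes and 10.6% of all genes. Within 100 bp it was 32 genes (59.3%), against 22 small-subunit genes (56.4%), 4 mitochondrial large-subunit genes (8.51%) and 3.95% of all genes. The intervals of the large and the small subunit overlapped under each rule, and no difference between the subunits was tested.

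The replicates gave these counts one by one. Among the 3767 strongest regions of each replicate, 38 large-subunit genes had a summit in replicate 1, 33 in replicate 2 and 36 in replicate 3, a mean of 35.7 ± 2.52 (SD, n = 3). The share among all protein-coding genes was 19.2% in replicate 1, 18.6% in replicate 2 and 19.0% in replicate 3. The IDR summit was matched within 100 bp among the strongest 3767 of all 3 replicates in 29 large-subunit genes (53.7%), against 21 small-subunit genes (53.8%), 4 mitochondrial large-subunit genes (8.51%) and 11.5% of all genes. A summit within 100 bp of a TSS was present among the strongest regions of all 3 replicates in 27 large-subunit genes (50%), against 1.51% of all genes. In at least 1 replicate it was present in 40 (74.1%), against 7.77% of all genes.

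**Figure D1:**
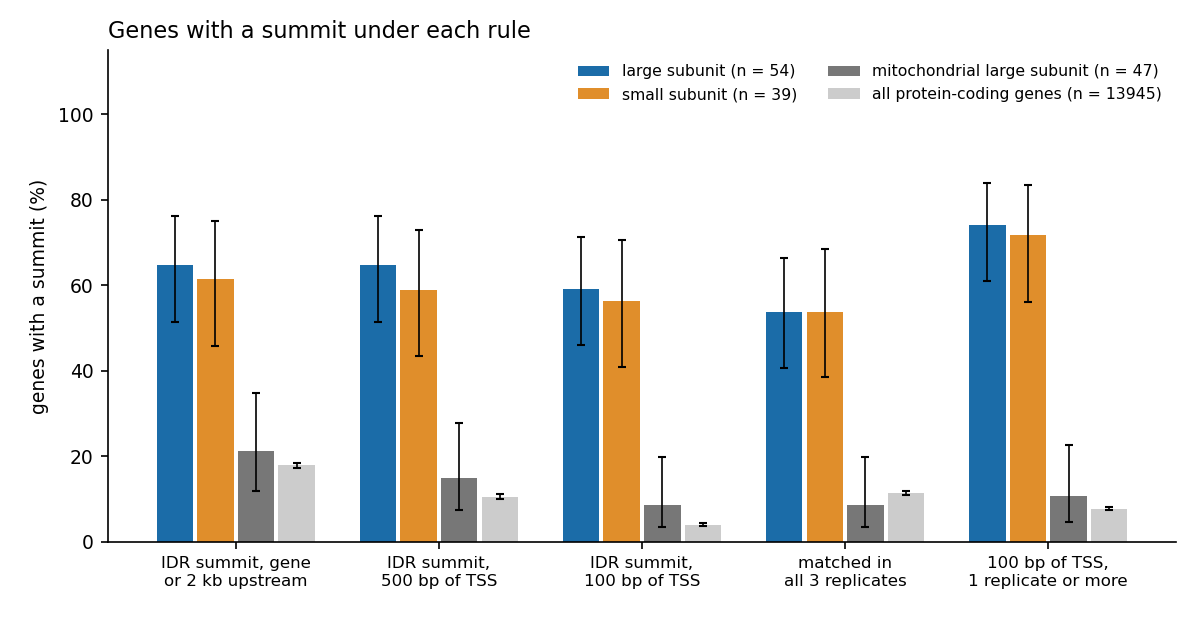
Bars give the percentage of genes with a summit under 5 rules, for the 54 large-subunit genes, the 39 small-subunit genes, the 47 mitochondrial large-subunit genes and all 13945 protein-coding genes, with 95% Wilson intervals that cover counting error over genes. The large-subunit bars run from 53.7 to 74.1%, near those of the small subunit and above those of the mitochondrial large subunit and of all genes.

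The summits sat on the starts of the genes. At all 35 large-subunit genes with an IDR summit, the gene's own TSS was the protein-coding TSS nearest to the strongest summit. This was so for 21 of 24 small-subunit genes, 4 of 10 mitochondrial large-subunit genes and 67.7% of all genes with a summit. The median summit lay 18 bp upstream of the nearest annotated TSS of its gene, with quartiles at 41 bp upstream and 2 bp downstream. The summit farthest downstream, by 132 bp, was at RpL40, which encodes a ribosomal protein made as a fusion with ubiquitin.

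Of the 35 summits, 30 lay within 50 bp of a TSS (85.7%), against 17 of 24 for the small subunit, 0 of 10 for the mitochondrial large subunit and 8.13% of all genes with a summit. In all, 25 lay upstream of the nearest annotated TSS of the gene (71.4%) and 10 at it or downstream. By the same measure 65.4% lay upstream for all genes with a summit. For those no longer than the longest large-subunit gene it was 81.7%. The share upstream thus lay between these backgrounds. Some summits counted as upstream lay inside the annotated gene, because the nearest TSS was not its 5′ end. An IDR summit lay inside the gene body in 17 of the 54 genes, against 10.1% of all genes. In the replicates' own lists the median distance was -16.5 bp in replicate 1, -21 bp in replicate 2 and -17.5 bp in replicate 3, a mean of -18.3 ± 2.36 bp (SD, n = 3), where negative means upstream. The median distance was -10 bp for the small subunit, -259 bp for the mitochondrial large subunit and -144 bp for all genes with a summit.

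**Figure D2:**
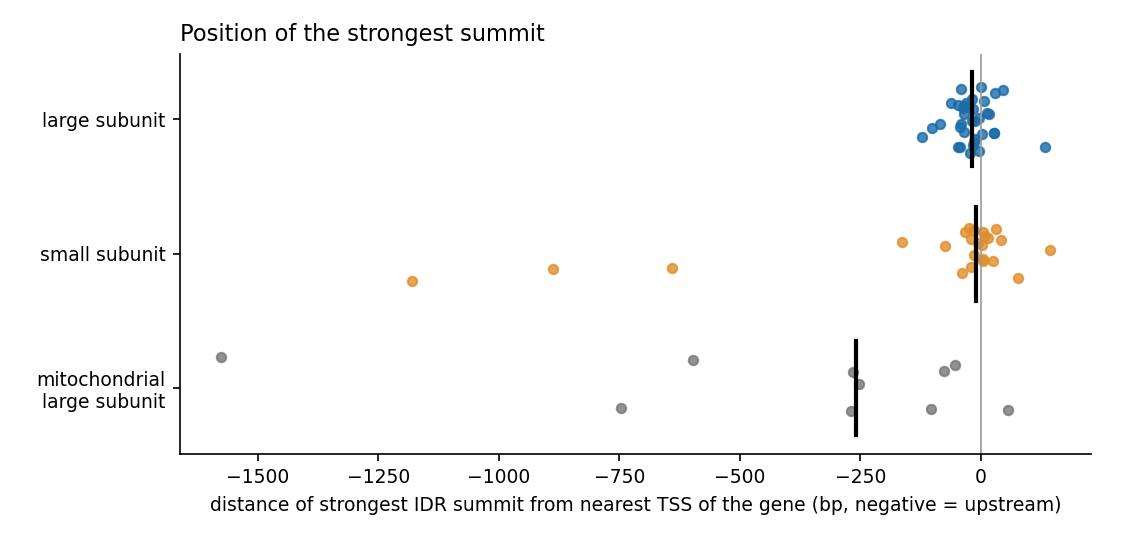
Each point is the strongest IDR summit of 1 gene, placed by its distance in bp from the nearest annotated TSS of that gene, with negative values upstream and black bars at the medians (vertical scatter only separates points). The 35 large-subunit summits have a median of -18 bp and reach 132 bp downstream. The points of the 24 small-subunit genes have a median of -10 bp and reach -1180 bp at RpS14b. Its summit has the same rank, 931, as the summit that lies at -24 bp for RpS14a. The 10 mitochondrial large-subunit summits have a median of -259 bp.

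A further IDR summit was present at 6 of the 35 genes, so that the 35 genes held 41 summits. These 6 genes were RpL13A, RpL28, RpL30, RpL34a, RpL8 and RpLP0-like. Their weaker summits lay 157 to 1290 bp upstream of the TSS, at ranks 648 to 3527.

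In strength the large-subunit summits ran from near the top of the list to near its end. Ranks in the IDR list went from 59 to 3310 with a median of 566, against a median of 931 for the small subunit, 1914.5 for the mitochondrial large subunit and 1396 for all genes with a summit. The 376 strongest regions of the list held the summit of 12 of the 35 genes, against 4 of 24 for the small subunit, 2 of 10 for the mitochondrial large subunit and 17.5% of all genes with a summit. The rank order was similar between replicates over the 34 genes with a matched summit in all 3 full lists. Spearman's rho was 0.917 for replicates 1 and 2, 0.891 for replicates 1 and 3 and 0.884 for replicates 2 and 3, given as a description because genes are not independent replicates and the ranks come from whole embryos of 1 line.

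The strongest summit was at RpL7. Its region spans chr2L:10200859-10201264 and ranked 41 in replicate 1, 98 in replicate 2, 77 in replicate 3 and 59 in the IDR list. RpLP0, the scaffold of the ribosomal stalk, was at rank 122 in the IDR list, with 74, 203 and 134 in replicates 1, 2 and 3, over chr3L:22075890-22076244. In both genes the summit ranked strongest in replicate 1 and weakest in replicate 2.

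RpL34a ranked 202 in the IDR list (169, 260 and 231 in replicates 1, 2 and 3). RpL23A, a protein at the mouth of the exit tunnel through which the growing peptide leaves, ranked 227 (186, 315 and 294). RpL13A ranked 232 (224, 331 and 210). None of the 3 had a replicate beyond the strongest 331 regions of its list.

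RpL19, whose product also lies near the tunnel exit, ranked 236 (234, 400 and 194), and RpL11, a partner of the 5S ribosomal RNA, ranked 252 (183, 279 and 400). RpL32, widely used as a reference transcript in fly work, ranked 258 (220, 257 and 293). RpL30 closed the strongest 10 at 322 (277, 387 and 377). The 9 of these 10 summits named here lay 15 to 62 bp upstream of the gene's nearest annotated TSS in the IDR list. At RpL7, RpLP0 and RpL30 that TSS was not the 5′ end of the gene, and the summit lay inside the annotated gene. The side changed in single replicates at RpL7 (42 bp downstream in replicate 1) and RpL19 (2 bp downstream in replicates 1 and 3). It also changed at RpL30, with summits 19 and 12 bp downstream in replicates 1 and 3. RpL7, RpL19 and RpL30 each have 2 annotated TSSs, and every distance was taken from the TSS nearest to that replicate's summit. A change of side can therefore be a change of the TSS measured from, and does not by itself show a moved summit. All 9 stayed within the strongest 400 regions of every replicate.

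**Figure D3:**
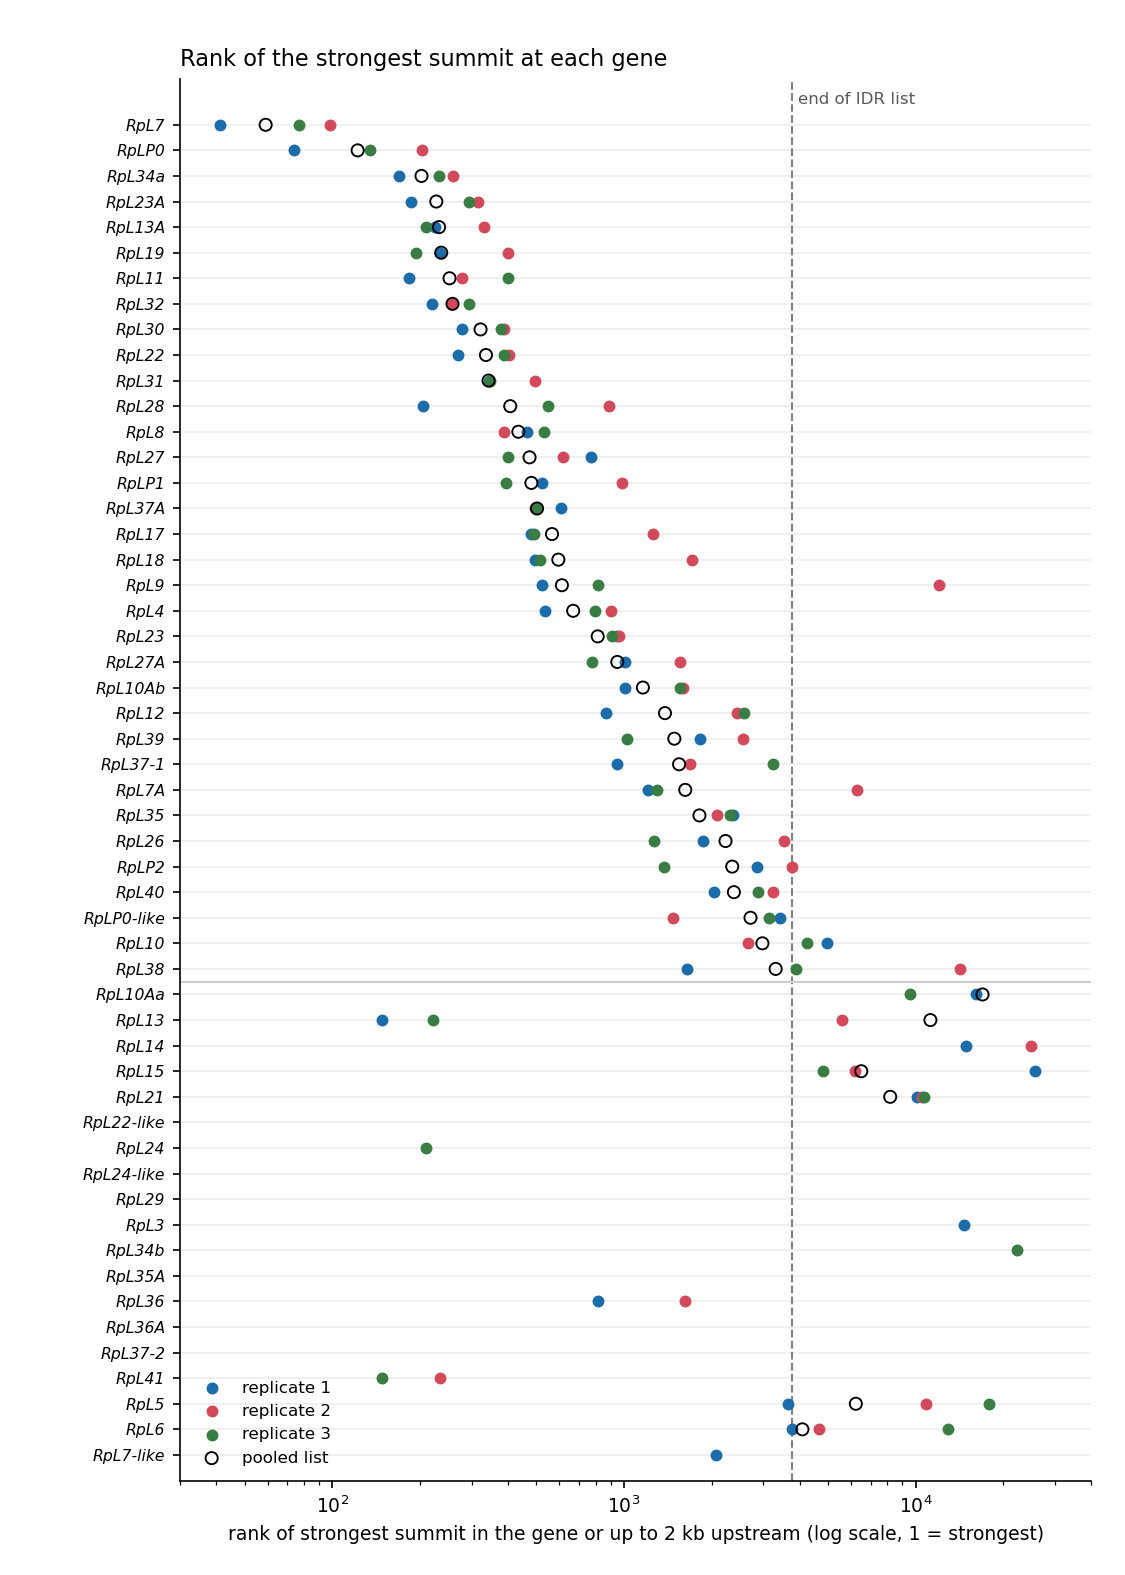
Each row is 1 of 53 of the genes, with the 34 plotted that have an IDR summit above the grey line in order of rank and the 19 without below it in order of symbol. Filled points give the rank of the strongest summit in the gene or up to 2 kb upstream in each replicate, open circles the rank in the pooled list, on a log axis where left is stronger, and the dashed line marks rank 3767. The strongest genes have all points close together on the left, RpL24, RpL36 and RpL41 have strong points in some replicates and none in others, RpL13 has strong points in 2 replicates and a weak one in replicate 2, and 6 genes have no point at all.

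The stalk is the flexible arm that recruits translation factors, and each of its 4 genes had an IDR summit. The share was 64.8% over all 54 large-subunit genes and 17.9% over all protein-coding genes. RpLP0 ranked 122 as above. RpLP1, 1 of the acidic stalk proteins, ranked 481 (524, 986 and 393 in replicates 1, 2 and 3). RpL12, which binds at the stalk base, ranked 1381 (866, 2431 and 2579), and RpLP2, the partner of RpLP1, ranked 2349 (2855, 3771 and 1369). The summits of RpLP1 and RpLP2 lay 41 and 101 bp upstream of the TSS, and that of RpL12 lay 29 bp downstream.

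Each of the 8 genes for proteins that line or surround the exit tunnel had an IDR summit too (RpL4, RpL17, RpL19, RpL23A, RpL26, RpL31, RpL35 and RpL39). Their ranks ran from 227 to 2228 with a median of 617.5. Of the 2 proteins that carry the 5S ribosomal RNA into the subunit, RpL11 had an IDR summit and RpL5 did not. RpL5 appeared at rank 6234 in the pooled list, 50 bp downstream of its TSS. Near the TSS it ranked 3658 in replicate 1 and 17808 in replicate 3, while replicate 2 had only a region elsewhere in the gene window, at 10813. Of the 29 genes placed in no such group, 17 had a summit. Over all 54 large-subunit genes the share with an IDR summit was 64.8%, and over all protein-coding genes 17.9%. These groups are small, and their differences from each other or from these shares were not tested.

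Each of 4 pairs of related genes (paralogs) split, with a summit at 1 gene and none in the IDR list at the other. That is 4 of 8 genes, beside 64.8% of the 54 large-subunit genes and 17.9% of all protein-coding genes. Whether pairs split more often than these shares would give was not tested. RpL34a ranked 202, whereas RpL34b appeared only in replicate 3, at rank 22205. RpL22 ranked 336 (269, 404 and 387), whereas RpL22-like, which is known for expression in the testis, had no region in any list. RpL10Ab ranked 1160 (1010, 1588 and 1551), whereas RpL10Aa appeared at rank 16953 of the pooled list, 1170 bp upstream of its TSS.

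RpL37-1 ranked 1544 (943, 1679 and 3231), and RpL37-2, the shortest of the genes at 422 bp, had no region in any list. Any reads that map equally well to both genes of a pair can be lost or shared between them. How such reads were handled upstream is not given in the sources used here. RpLP0-like, RpL7-like and RpL24-like resemble yeast factors of ribosome assembly. RpLP0-like ranked 2714 (3418, 3061 and 3133, with a stronger summit of replicate 2 elsewhere in the window at 1469), RpL7-like had a summit only in replicate 1, at rank 2059, and RpL24-like had none in any list.

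The genes nearest the end of the IDR list were RpLP0-like at rank 2714, RpL10 at 2981 (4978, 2668 and 4251 in replicates 1, 2 and 3) and RpL38 at 3310 (1638, 14191 and 3893). RpL10 is a late-joining protein close to the site of peptide transfer. Just past the end, RpL6 ranked 4088 in the pooled list with a summit 55 bp downstream of its TSS, and RpL5 and RpL15 followed at 6234 and 6508.

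Replicate ranks, taken here from the summit within 100 bp of the IDR summit, varied most at RpL26 (5678 ± 7130, SD, n = 3), RpL38 (6574 ± 6692), RpL7A (2925 ± 2901), RpLP2 (2665 ± 1212) and RpL10 (3966 ± 1181). At RpL26, RpL38 and RpL7A it was replicate 2 that stood apart, with ranks of 13904, 14191 and 6274 against 1864, 1638 and 1208 in replicate 1. At RpL26 this rests on the match, since replicate 2 also had a stronger summit in the gene window, at rank 3537, and the ranks of the strongest summit in the window gave 2223 ± 1177 (SD, n = 3). RpL9 ranked 521 in replicate 1 and 816 in replicate 3, and its summit had no match within 100 bp in replicate 2, where the strongest summit in the window ranked 12032.

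The 19 genes without an IDR summit were of more than one kind. Regions of the pooled list were present at 6 of them, namely RpL6, RpL5, RpL15, RpL21 at 8177, RpL13 at 11232 and RpL10Aa at 16953. The other 13 had none in the pooled list, and 6 of these had none in any list. The 6 were RpL22-like, RpL24-like, RpL29, RpL35A, RpL36A and RpL37-2.

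At 5 of the 19, however, at least 1 replicate had a summit within 100 bp of the TSS among its strongest 3767. RpL13 ranked 148 in replicate 1, 16 bp upstream, and 222 in replicate 3, 28 bp upstream, but replicate 2 had only a region at rank 5569 elsewhere in the gene window. RpL41, which encodes one of the smallest ribosomal proteins, ranked 233 in replicate 2 and 148 in replicate 3, 31 and 43 bp upstream, and had no region in replicate 1. RpL24 ranked 209 in replicate 3, 10 bp upstream, and had no region in the other replicates.

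RpL36 ranked 812 in replicate 1 and 1613 in replicate 2, and had no region in replicate 3. RpL5, at 3658 in replicate 1, was the last of the 5. The summits of RpL13, RpL24, RpL36 and RpL41 had no counterpart at the TSS in the pooled list either, although the pooled list also holds 30000 regions. RpL14, whose best rank was 14849 in replicate 1, and RpL3, whose product reaches close to the site of peptide transfer and which ranked 14618 in replicate 1, had only weak regions.

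Such gaps were not limited to these genes. Of the 376 strongest regions of a replicate, 3.19 to 6.91% had no summit within 100 bp in the pooled list and 2.39 to 5.05% had none in another replicate. Among the large-subunit genes with a summit among these 376, 1 of 14 in replicate 1 (RpL13), 1 of 9 in replicate 2 (RpL41) and 3 of 12 in replicate 3 (RpL13, RpL24 and RpL41) had no counterpart in the pooled list. The part of the authors' filters in these gaps was not tested.

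Genes with summits were found on every arm that holds large-subunit genes, with 7 of 13 on 2L, 10 of 14 on 2R, 8 of 10 on 3L, 5 of 11 on 3R and 5 of 6 on X. Small nucleolar RNA genes lie inside 16 of the 54 genes, 11 of them with an IDR summit and 5 without. Over all 54 genes the share with an IDR summit was 64.8%, and over all protein-coding genes 17.9%. Shares of all genes by arm were not computed, and neither arms nor host genes were tested for a difference. Because the genes are short and closely packed, 26 of the 35 strongest summits also fell in the window of another protein-coding gene, although none lay nearer to that gene's TSS.

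Another protein-coding gene starts within 500 bp of the 5′ end of 22 of the 54 genes (40.7%), against 30.2% of all genes. An IDR summit was present at 13 of these 22, and at 22 of the 32 genes without such a neighbour. The share with an IDR summit was 64.8% over all 54 genes and 17.9% over all protein-coding genes. Shares of all genes with and without a neighbour were not computed, and no difference was tested. The 13 summits with a neighbour had a median rank of 258, against 1054 for the 22 without, a split that was made after the ranks were seen. The median ranks were 224, 400 and 293 in replicates 1, 2 and 3 with a neighbour, against 942.5, 1588 and 967.5 without. Of the 10 strongest, 7 had a neighbour, among them RpL7 with Ripalpha, RpLP0 with CG7130 and RpL32 with CG7943.

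For other genes with an IDR summit within 100 bp of a TSS, the median rank was 2224 with a neighbour (219 genes) and 2316 without (300 genes). A summit between 2 close starts cannot be given to either gene from its position alone. At RpL13 the neighbour is Dref, the gene of the factor that binds the DRE.

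The sequence at the summits was searched for words within 100 bp on both strands, and a word is not by itself a binding site. The DRE was present at 8 of the 35 large-subunit summits (22.9%), against 3.43% of the 1400 other IDR summits within 500 bp of a TSS and 0.172% of the 2332 summits farther away. The core of the M1BP word was present at 6 (17.1%), against 1.43% and 0.214%. The words shown above for RpL7, RpLP0, RpLP1, RpL28, RpL27 and RpL37-1 are among them. The large-subunit summits lay at most 132 bp from a TSS, whereas the other summits near a TSS may lie up to 500 bp away. The part of this distance in the word shares was not tested.

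Together, 13 summits held at least 1 of these words, 1 of them both (RpL27), and 22 held neither. Of the 10 strongest, 5 held 1 of them, and the median rank was 474 with a word and 640.5 without. At the 5 DREs outside chromosome arm 2R the middle of the word lay 4 to 41 bp upstream of the summit on the strand of the gene, with a median of 7 bp. The 6 M1BP words lay between 83 bp upstream and 27 bp downstream, with a median distance of 41 bp.

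E-boxes, the words a MyoD-family factor binds, were counted in the same windows. The word CANNTG was present at 20 of the 35 (57.1%, interval 40.9 to 72.0%), against 64.7% of the other summits near a TSS and 66.9% of the summits farther away. Its form CAGCTG, favoured by MyoD in mammals, was present at 0 of 35, which allows a share of up to 9.89% by the Wilson interval, against 16.6% and 14.5%. The GAGA factor word GAGAG was present at 3 (8.57%), against 30.7% and 26.7%, and TATAAA at 8 (22.9%), against 28.4% and 30.1%. The GC share of the windows was 42.2 ± 6.21% (SD over 35 windows), against 39.6 ± 8.79% at the other summits near a TSS, and its part in the word counts was not tested.

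**Figure D4:**
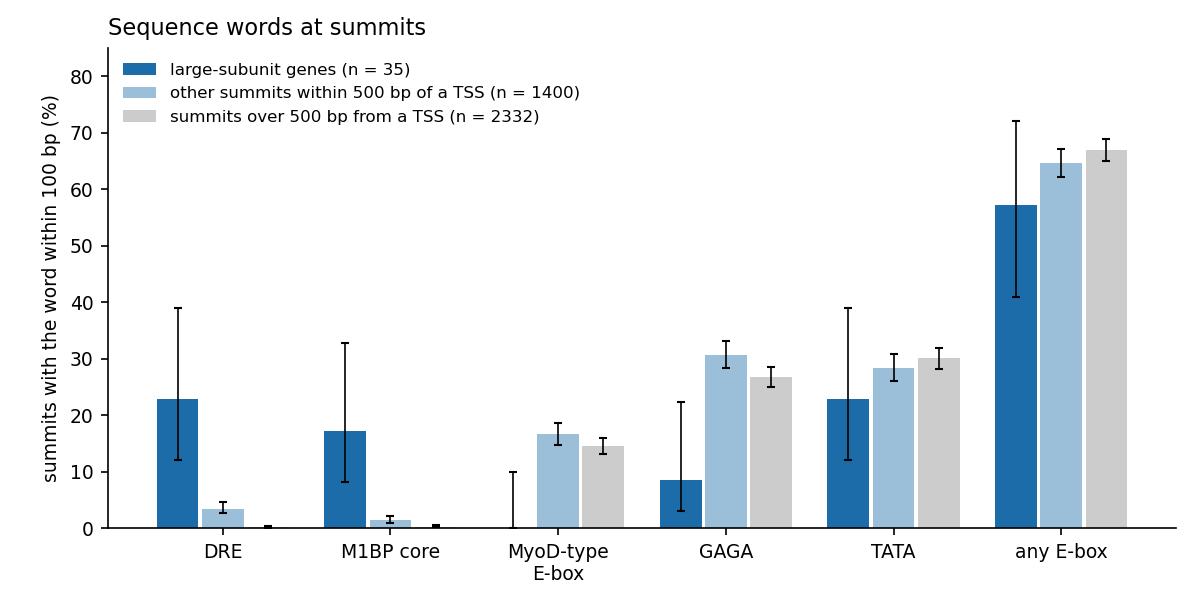
Bars give the percentage of IDR summits with each word within 100 bp on either strand, for the 35 strongest summits of large-subunit genes, the 1400 other summits within 500 bp of a TSS and the 2332 summits farther away, with 95% Wilson intervals. The DRE and the M1BP core are at 22.9 and 17.1% of large-subunit summits and at 3.43 and 1.43% of the other summits near a TSS, whereas the MyoD-type E-box (CAGCTG) and the GAGA word are lower at the large-subunit summits.

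All 54 promoters, taken from 250 bp before to 50 bp after the annotated start of the gene, were searched for the same words. The DRE was present in 15 of the 54 (27.8%), against 13 of 39 small-subunit genes (33.3%) and 9.36% of all genes. It was present in 9 of the 35 genes with an IDR summit and in 6 of the 19 without. The M1BP core was present in 6 genes (11.1%), against 4 of 39 small-subunit genes (10.3%) and 6.05% of all genes. All 6 were among the 35 with a summit. The 0 of 19 without a summit allows a share of up to 16.8% by the Wilson interval. CAGCTG was present in 3 (5.56%), against 6 small-subunit genes (15.4%) and 17.7% of all genes. CANNTG was present in 40 (74.1%), against 26 small-subunit genes (66.7%) and 77.2% of all genes. GAGAG was present in 12 (22.2%), against 4 small-subunit genes (10.3%) and 29.7% of all genes. TATAAA was present in 24 (44.4%), against 21 small-subunit genes (53.8%) and 45.8% of all genes. In the 35 promoters with an IDR summit GAGAG was present in 8 (22.9%), and in 11 (31.4%) when 150 bp either side of the start were taken, against 30.6% of all genes. Its share was thus nearer the background in these windows than within 100 bp of the summits.

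The TCT word had its C within 20 bp of the annotated start in 30 of the 54 genes (55.6%), against 16 of 39 small-subunit genes (41.0%) and 1.76% of all genes. Counting every annotated TSS, it was present in 46 (85.2%), against 28 small-subunit genes (71.8%) and 2.76% of all genes. By this wider rule it was present at 32 of the 35 genes with an IDR summit and 14 of the 19 without. The exceptions with a summit were RpL34a, RpL12 and RpLP0-like. At the 32 genes the summit lay a median of 23 bp upstream of the C, and 24 of the 32 were within 50 bp of it. The C lay within 5 bp of the annotated start of the gene in 17 of the 54 (31.5%), against 0.567% of all genes. It lay exactly at that start in 0 of the 54, against 3 of all 13945 genes (0.0215%). The words counted are thus near annotated starts and are not shown to hold the base where transcription begins.

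Summits and the TCT word were then set side by side. The word was counted only at the start of the gene, whereas the summit could lie at any annotated TSS. Genes counted as without the word, such as RpL7 and RpLP0, can therefore hold it at another TSS. Counted at every TSS, the word was present at 32 of the 35 genes with an IDR summit and 14 of the 19 without, as above. An IDR summit lay within 100 bp of a TSS in 19 of the 30 large-subunit genes with the word (63.3%), against 13 of the 24 without it (54.2%). Among genes for neither cytosolic nor mitochondrial ribosomal proteins the shares were 12 of 200 with the word (6%) and 3.54% of 13579 without it.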

How the data were processed

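Per the labels, anti-GFP ChIP was done on sonicated chromatin (200 to 800 bp) of whole nau-GFP embryos in 3 biological replicates. The authors deposited narrowPeak lists on dm6 and dm3, and the read-me files name a control. Which aligner, caller and IDR cut-off were used is not given in the sources used here. Enrichment is the signal value deposited by the authors, on an unnamed scale, and was used only as a rank within each list. Another deposited column, the summit offset, gave the summit when added to the region start. Because no dm3 annotation was used here, only dm6 lists were analysed. The antibody label names nau and the description anti-GFP, and the description was followed.

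Genes and TSSs were from Ensembl release 115 and sequence from the RefSeq Release 6 genome. Summits were assigned to gene windows, matched within 100 bp between lists and searched for words, with Python 3.11.15, numpy 2.4.6, scipy 1.17.1 and pandas 2.3.3, and checked on simulated data. The members and lists were chosen with earlier results of these data known, so lists are described by counts beside all genes, with no set test. Named with values were the 10 strongest members (1 of which is not reported here by name), the stalk, 5S and paralog genes, members without an IDR summit, the 3 nearest the threshold and the 5 with the largest SD of rank. RpL9, and the genes that neighbour or host a summit, were named after their values were seen. Alternatives varied the window, threshold, match distance, replicates, TSS definition and word window.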

Additional observations from a re-analysis of the deposited data

How the results depend on the processing

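Of 45 values recomputed under another setting, 36 stayed near the original, within 1.5 times for counts of genes with a summit, within 1 SD over replicates for the distance and within the counting interval for words. The 35 large-subunit genes with an IDR summit became 17 when only the gene body was counted (10.1% of all genes). The 29 genes with a summit matched in all 3 replicates became 19 with the 1000 strongest regions of each replicate (4.88% of all genes). The 30 genes with a TCT word became 46 at any TSS (2.76% of all genes) and 17 within 5 bp of the start (0.567%), alternatives chosen after seeing the data. When a replicate was left out of the matching, the IDR list of all 3 pooled replicates was kept. This gave 29 to 33 genes with a summit matched in the other 2 replicates (12.7 to 13.2% of all genes). These counts stand among the 45 values under both the IDR count and the matched count. The median distance in the lists of the other 2 replicates ran from -20 to -16.5 bp. Windows of 500 bp or 1 kb upstream could not change the 35 genes, whose strongest summits lay at most 132 bp from a TSS. The 1883 strongest IDR regions gave 29 genes (11.2% of all genes) and the first 5000 pooled regions 36 (21.1%). With 200 bp either side of the summit, CAGCTG was at 2 of the large-subunit summits, against 25.9% of all IDR summits. The 5 other values that moved were counts at the 35 summits. Within 50 bp there were 11 with an E-box, against 41.9% of all IDR summits, and 2 with a TATA word, against 17.2%. Within 200 bp there were 32 with an E-box (91.4%), against 88.7%, 13 with a GAGA word (37.1%), against 51.0%, and 15 with a TATA word (42.9%), against 45.9%. The lists give ranks without read depth, and a gene absent from a list is not shown to lack enrichment. Genes and regions are not replicates, and the 3 replicates are of 1 line. No paired analysis was possible because the samples form 1 group.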
